A study of Mus musculus with 4 samples.

Results

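The genes described here are a chosen list of 48 mouse cadherins, single (non-clustered) protocadherins, large cadherins and catenins, out of 21774 protein-coding genes on the assembled chromosomes. The list goes by gene name and family, without a threshold on any measured value, but was drawn up with earlier results of these data known. It holds 18 classical cadherins, 12 single protocadherins, 12 large cadherins and 6 catenins. The group called large cadherins here is mixed, with Cdh23, 5 Fat and Dachsous genes, 3 Celsr genes and 3 calsyntenin genes. Each of the 48 genes was placed on its RefSeq bounds in GRCm38.p6 and joined to the CTCF peaks at its ends, inside it and within 50 kb of it.

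Cadherins are calcium-dependent adhesion proteins of the cell surface, and in neurons they help to join axons, dendrites and synapses. Classical cadherins hold on to the actin skeleton through catenins: p120-family catenins keep the cadherin at the membrane, beta-catenin binds its tail, and alpha-catenin links the complex to actin. Protocadherins and large cadherins of the Fat, Dachsous and Celsr families act in cell recognition, axon growth and tissue polarity. CTCF binds DNA through zinc fingers and, with cohesin, anchors chromatin loops.

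The peaks come from primary cortical neurons of wild-type Swiss-Webster mice, taken on embryonic day 16 and kept in culture for 13 days. The study maps the topoisomerase TOP2B in neurons, and this series holds its CTCF immunoprecipitations, 2 labelled as biological replicates, with 2 input libraries. All 4 libraries share genotype and age and are labelled as untreated, although their culture text also describes etoposide in DMSO. The peak list holds no expression values, so the neuronal label could not be checked against marker genes.

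The authors deposited 1 joint list of 33820 peaks, 33815 of them on assembled chromosomes, and each had a match in both replicates. The irreproducible discovery rate (IDR, the expected share of matched peaks that do not repeat) was 0.05 or less. A summit is the base of highest signal in a peak. The joint strength of a peak is the deposited sum of the −log10 p of its 2 matches, and the medians of the list were 165.5 for the sum, 30.9 for the first replicate column and 129 for the second. The second column was the higher one in 90.7% of peaks. Read depth per library is unknown, so strengths are compared only between peaks of this list. There is 1 condition, and neither genes nor peaks are replicates of it. Every comparison below therefore sets the members beside all protein-coding genes as a description, without a test.

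The members and their 50 kb flanks held 244 peaks, 0.721% of the list. Of these, 59 stood at the highest −log10 IDR the list gives, 5, as did 24.8% of all peaks of the list, so the members' count is near the background. Their median joint strength was 152, against 165.5 over the list, and 48.8% of them lay above the list's median. A summit stood within 1 kb of either end in 13 of 48 members (27.1%), against 29.2% of all protein-coding genes. A summit stood inside, more than 1 kb from an end, in 40 of 48 members (83.3%), against 35.5% of all. Within 50 kb of the bounds there was one in 45 of 48 (93.8%), against 82.9% of all. The members were long genes, with a median length of 128 kb against 17.2 kb over all protein-coding genes, and length moves with each of these counts. Among genes over 300 kb, 15 of 15 members and 91.4% of all genes held a summit inside. Between 100 and 300 kb the counts were 11 of 13 members (84.6%) and 81.7% of all genes. In these long classes an end summit stood at 6 of 15 members (40%) against 47.8% of all genes over 300 kb, and at 5 of 13 members (38.5%) against 41.8% of all genes of 100 to 300 kb. Of 11 members of 30 to 100 kb, 0 had a summit at an end, against 33.7% of all genes of that length.

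By family, end summits were found at 4 of 18 classical cadherins, 1 of 12 single protocadherins, 5 of 12 large cadherins and 3 of 6 catenins. Among the classical cadherins these were 2 of 5 type I genes, Cdh2 and Cdh4, and 2 of 12 type II genes, Cdh11 and Cdh22. The upper end of a gene is the one at the higher coordinate. Cdh22, a type II cadherin of the brain, had a summit at both ends. Its upper-end peak (chr2:165233001-165235877, GRCm38) measured 343 (first replicate column) and 287 (second), and its lower-end peak 194 and 215. The upper end is the start of Cdh22, and its joint strength of 630 was the highest at any member's end. Cdh2 is N-cadherin, the main classical cadherin of neurons, and its end peak measured 99.8 and 94.8. Cdh4, or R-cadherin, had 118 and 115, and Cdh11, known from bone and brain, had 55 and 49.9. At these 4 genes both replicate columns stood close together, whereas the median log2 ratio of second over first was 1.91 over the list.

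Pcdh1 was the 1 single protocadherin with a summit in the 1 kb window, 854 bp from its upper end, and it measured 125 in the first column and 456 in the second. Among the large cadherins, Cdh23, which joins the stereocilia of hair cells in tip links, had 164 and 331. Fat3, a Fat cadherin that shapes dendrites of retinal neurons, had 159 and 152, and Fat1 had 34.7 and 110. Celsr2, a seven-pass receptor of the planar polarity system, had 48 and 59.9 at its upper end. Clstn2, a calsyntenin of the synaptic membrane, had 75.9 and 98.0. Of the catenins, Ctnna2 encodes the neuronal alpha-catenin and had 226 and 280, the strongest end peak of its family at a joint strength of 505. Ctnnd2, the neural delta-catenin, had 81.6 and 89.6, and Ctnna1, the widely expressed alpha-catenin, had 68.2 and 70.5. The beta-catenin gene Ctnnb1, the p120-catenin gene Ctnnd1 and the third alpha-catenin gene, Ctnna3, had no summit within 1 kb of an end. Of the 14 end peaks, 4 also lay within 1 kb of another gene's end, a long non-coding RNA gene at Pcdh1, Celsr2 and Ctnnd2 and a protein-coding gene at Ctnna1.

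**Figure D1:**
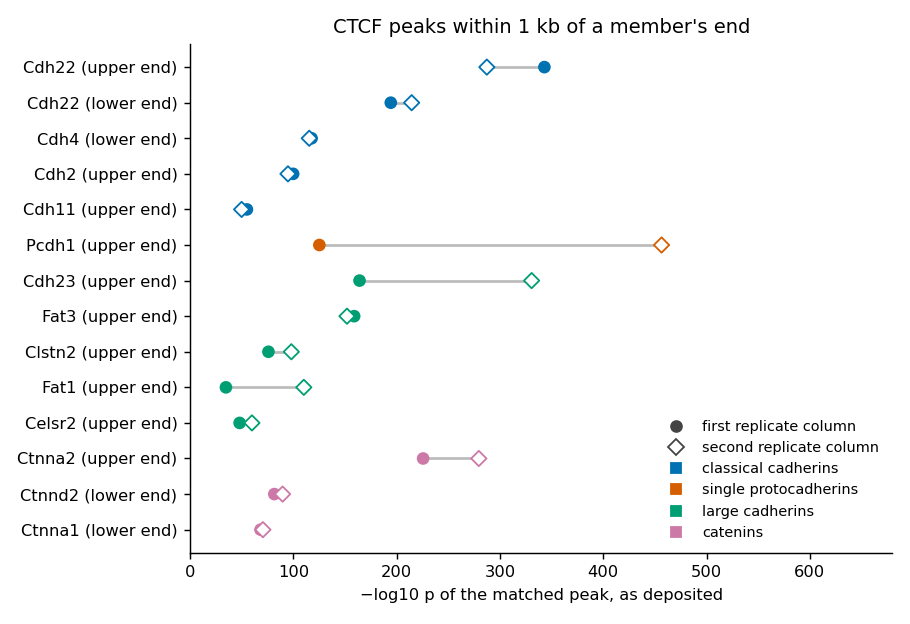
Deposited −log10 p of the 14 peaks with a summit within 1 kb of a member's end, in the first replicate column (filled circles) and the second (open diamonds), coloured by family and joined by a line per peak. The symbols lie close together for most genes, while Pcdh1 (125 and 456), Cdh23 (164 and 331) and Fat1 (34.7 and 110) are higher in the second column.

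Over the 14 end peaks, the median was 109 in the first column and 113 in the second, and the median log2 ratio of second over first was 0.14. All peaks at ends of protein-coding genes had medians of 52.9 and 99.96 and a log2 ratio of 0.40. The members' peaks inside had a median log2 ratio of 1.93, against 1.95 for all peaks inside protein-coding genes. The smaller gap between columns at ends was thus shared by the members and by genes at large. What sets the columns apart was not tested, and depth and the other differences between the libraries cannot be told apart in this list. The summits nearest to the 1 kb limit were those of Pcdh1 at 854 bp and Cdh22 at 890 bp on the inner side. On the outer side they were those of Pcdh18 at 1280 bp, Celsr1 at 1355 bp and Celsr2 at 1406 bp.

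**Figure D2:**
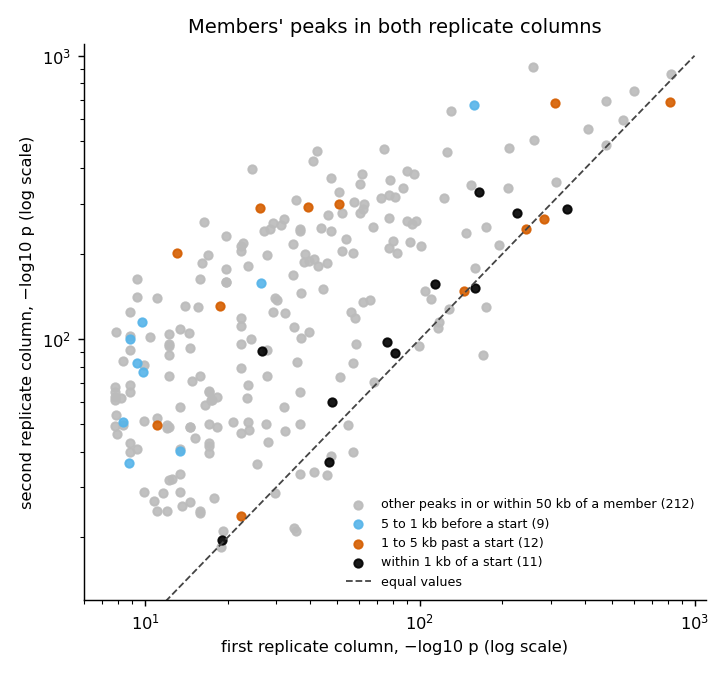
Deposited −log10 p of the members' peaks in the first (horizontal) and second (vertical) replicate column, both on log scales, with a dashed line at equal values. Colours mark peaks within 1 kb of a transcription start, 1 to 5 kb past a start, 5 to 1 kb before a start, and all others. Starts were known for 34 members. Peaks within 1 kb of a start had a median log2 ratio of second over first of 0.31. The median ratio was 1.65 for those past a start and 2.61 for those before a start.

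The strand of a gene, and so its transcription start, was known for the 34 members with an entry in the RefSeq promoter table (GRCm38.p6), which gives 250 bases before and 50 after a start. Cdh1, Cdh2, Cdh3, Cdh4, Cdh5, Cdh11, Cdh13, Cdh19, Pcdh1, Pcdh11x, Pcdh12, Dchs1, Celsr1 and Ctnna1 were not placed. Of the 9 end peaks of placed members, 7 lay within 1 kb of a start and 2 at a finish, the finishes of Cdh22 and Fat1. Counting starts inside the gene bounds as well, a summit stood within 1 kb of a start in 11 of 34 members (32.4%), against 27.2% of 17492 protein-coding genes with an entry. Cdh6, Cdh8, Pcdh9 and Pcdh15 entered in this way. Starts of members over 100 kb had one in 10 of 21 (47.6%), against 45% of all genes of 100 to 300 kb and 52.2% of all over 300 kb.

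In 3 members the summit fell inside the 300 promoter bases themselves: Ctnna2, 23 bases past the start, Fat3, 94 before it, and Clstn2, 119 before it. The summit of Pcdh15 lay 56 bases past its start. These 4 promoters are shown with that of Celsr3, a seven-pass cadherin needed for axon tracts, which had no summit within 50 kb. They are RefSeq GRCm38.p6 sequences, read 5′ to 3′ along the gene, and capitals mark CTCF core letters on either strand. The longer form searched was CC, any 3 bases, then AGGNGGC, and the shorter form AGGNGGC alone. The capitals mark the longer form in Pcdh15 and the shorter one elsewhere.
Ctnna2, chr6:77979618-77979917, minus strand: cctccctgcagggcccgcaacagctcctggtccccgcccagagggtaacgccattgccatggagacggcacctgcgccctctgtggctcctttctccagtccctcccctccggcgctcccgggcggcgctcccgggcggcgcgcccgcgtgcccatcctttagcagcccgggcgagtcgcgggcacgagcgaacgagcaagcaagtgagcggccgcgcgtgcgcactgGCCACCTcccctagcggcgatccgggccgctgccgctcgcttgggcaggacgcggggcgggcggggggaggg
Clstn2, chr9:98033118-98033417, minus strand: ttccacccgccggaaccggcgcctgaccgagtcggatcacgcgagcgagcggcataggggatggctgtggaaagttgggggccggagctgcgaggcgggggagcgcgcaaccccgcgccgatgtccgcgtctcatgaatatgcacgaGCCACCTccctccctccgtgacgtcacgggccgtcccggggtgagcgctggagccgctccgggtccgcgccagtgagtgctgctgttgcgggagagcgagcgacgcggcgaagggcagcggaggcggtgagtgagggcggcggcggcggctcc
Pcdh15, chr10:73821617-73821916, plus strand: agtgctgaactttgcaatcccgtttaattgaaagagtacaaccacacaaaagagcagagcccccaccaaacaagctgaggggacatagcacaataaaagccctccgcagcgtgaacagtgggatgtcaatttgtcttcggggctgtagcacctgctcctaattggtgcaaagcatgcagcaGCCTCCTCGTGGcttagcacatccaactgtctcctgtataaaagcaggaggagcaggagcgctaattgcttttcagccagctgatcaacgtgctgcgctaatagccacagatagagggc
Fat3, chr9:16502005-16502304, minus strand: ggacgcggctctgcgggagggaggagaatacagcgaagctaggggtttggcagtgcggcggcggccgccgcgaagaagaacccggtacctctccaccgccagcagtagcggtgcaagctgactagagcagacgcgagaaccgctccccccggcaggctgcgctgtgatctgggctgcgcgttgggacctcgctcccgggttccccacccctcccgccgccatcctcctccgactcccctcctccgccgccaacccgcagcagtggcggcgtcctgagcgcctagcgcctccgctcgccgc
Celsr3, chr9:108825795-108826094, plus strand: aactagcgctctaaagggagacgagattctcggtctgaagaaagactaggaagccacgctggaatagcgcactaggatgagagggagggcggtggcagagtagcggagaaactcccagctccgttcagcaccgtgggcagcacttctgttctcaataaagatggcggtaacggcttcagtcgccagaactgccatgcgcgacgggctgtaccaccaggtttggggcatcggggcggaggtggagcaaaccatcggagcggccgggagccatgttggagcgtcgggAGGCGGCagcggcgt

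Ctnna2 and Clstn2 carry the short letters on the other strand, beginning 22 and 103 bases before the start. Pcdh15 carries the longer form, also on the other strand. Fat3 has a summit but neither form in this window, and Celsr3 has the short form, from base 36 of the transcript on, with no summit within 50 kb. Over the 42 promoter entries of the 34 members, the short form occurred in 20 (47.6%), against 33.6% of 21263 promoters of all protein-coding genes. The longer form occurred in 2 of 42 (4.76%), those of Cdh7 and Pcdh15, against 4.12% of all. Among members' promoters with a summit within 1 kb of the start, 10 of 12 entries held the short form, among them 2 overlapping entries of Pcdh9, against 10 of 30 entries without such a summit. The shares of all promoters under this 1 kb criterion were not computed, so these counts have no background here. With the narrower criterion of a summit inside the 300 bases, 2 of 3 member promoters held the short form, against 57.7% of all promoters with such a summit and 31.6% of those without. Base composition moved with these counts, as the median GC content was 63.7% in the 12 member promoters and 58.8% in the other 30. Its part in the counts was not tested.

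In the single protocadherins, summits often stood further in. With windows chosen after the values were seen, a summit lay 1 to 5 kb past a start in 12 of 34 members (35.3%), against 10.2% of all genes with an entry. Of these 12 members, 7 were single protocadherins, out of 9 placed (77.8%), and 2 of 10 classical cadherins, 2 of 10 large cadherins and 1 of 5 catenins made up the rest. In the delta protocadherins, a branch whose members mark different brain regions and circuits, the count was 6 of 7 (85.7%). Of all genes with an entry, between 8.29% and 15.1% had a summit there, depending on the length class. The family counts depend on which starts are listed. Fat1, Cdh6 and Cdh8 were not counted, but had a summit 1 to 5 kb inside the 5′ end of their bounds. Between 5 and 1 kb before a start, a summit stood in 7 of 34 members (20.6%), against 11.5% of all genes. They were Pcdh10, Pcdh17 and Pcdh19, the catenin genes Ctnna3, Ctnnd1 and Ctnnd2, and Cdh12. Starts inside the gene bounds were counted too, and the summit of Cdh12 lay in the gene, 660692 bp above its lower end. Ctnna3 and Ctnnd1 each had a summit inside their bounds as well as one outside them. In this window before the start, the median joint strength of the members' peaks was 91.5, against 181 for all genes' peaks.

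Pcdh7 had the strongest of these peaks, 1627 bp past its start, with 813 and 687 in the replicate columns. Its joint strength of 1499 was the highest of any peak inside a member, and the peak is broad, at chr5:57713532-57720388 (GRCm38), so that it also spans the start, as does the peak of Pcdh8. Counted by any base of a peak instead of its summit, 5 of 12 single protocadherins had a peak within 1 kb of an end, against 36.1% of all genes. Pcdh8, the mouse counterpart of the activity-induced rat protein arcadlin, had a summit 1490 bp past the start (chr14:79767962-79771749) with 283 and 266, and an end of a long non-coding RNA gene lies within 1 kb of it. Pcdh10, needed for axons through the striatum, had summits on both sides of its start, 2788 bp past it (chr3:45379266-45381977) with 244 and 246, and 2468 bp before it with 157 and 669. Pcdh17, which acts at synapses between cortex and basal ganglia, had 145 and 148 at 3607 bp past the start (chr14:84445177-84448656). These 4 genes had values in the first column of 145 or more, far above the list's median of 30.9.

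The other 3 were weaker in the first column. Pcdh20 had 13.1 and 201 at 4766 bp, Pcdh18 had 11 and 49.9 at 1213 bp, and Pcdh19, whose human gene is known from an X-linked epilepsy, had 22.3 and 23.7 at 2816 bp. Pcdh20 is only 6654 bp long, and its summit lay 1887 bp from its finish, nearer to it than to the start. In Pcdh8, 4541 bp long, the window takes in all of the gene beyond the first 1 kb. Pcdh9 and Pcdh15 were the exceptions when measured from these starts. The start used for Pcdh15 lies deep inside the gene, and its summit there stood 725646 bp above the lower end. On the plus strand the lower end is the 5′ one, and a strong peak had its summit 1977 bp above it, with 211 and 471. Pcdh9 had a weak peak 396 bp before its start, with 19 and 19.6. A stronger one of 17 and 197 stood 5981 bp past the start, beyond the window. The weak summit of Pcdh9 lay 1 to 5 kb inside its upper end, the 5′ one on the minus strand. Fat1, a large cadherin on the plus strand, also has its listed start inside the gene. It had a summit 2849 bp above its lower, 5′ end with 261 and 504. Another stood 4208 bp above that end with 175 and 130. Cdh6 and Cdh8, on the minus strand, each had a summit 1 to 5 kb inside their upper end. These were counted as within 1 kb of a listed start. Shares for all genes measured from their bounds were not computed. When peaks at or below the first column's median were dropped, 4 of the 9 single protocadherins still had a summit 1 to 5 kb past the start, against 5.63% of all genes. With an end window of 5 kb in place of 1 kb, 12 of 12 single protocadherins and 6 of 6 catenins had a summit near an end. The share of all protein-coding genes was 51.3%. This window reaches outside the bounds at either end, and it covers the whole of Pcdh8 and Pcdh20.

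**Figure D3:**
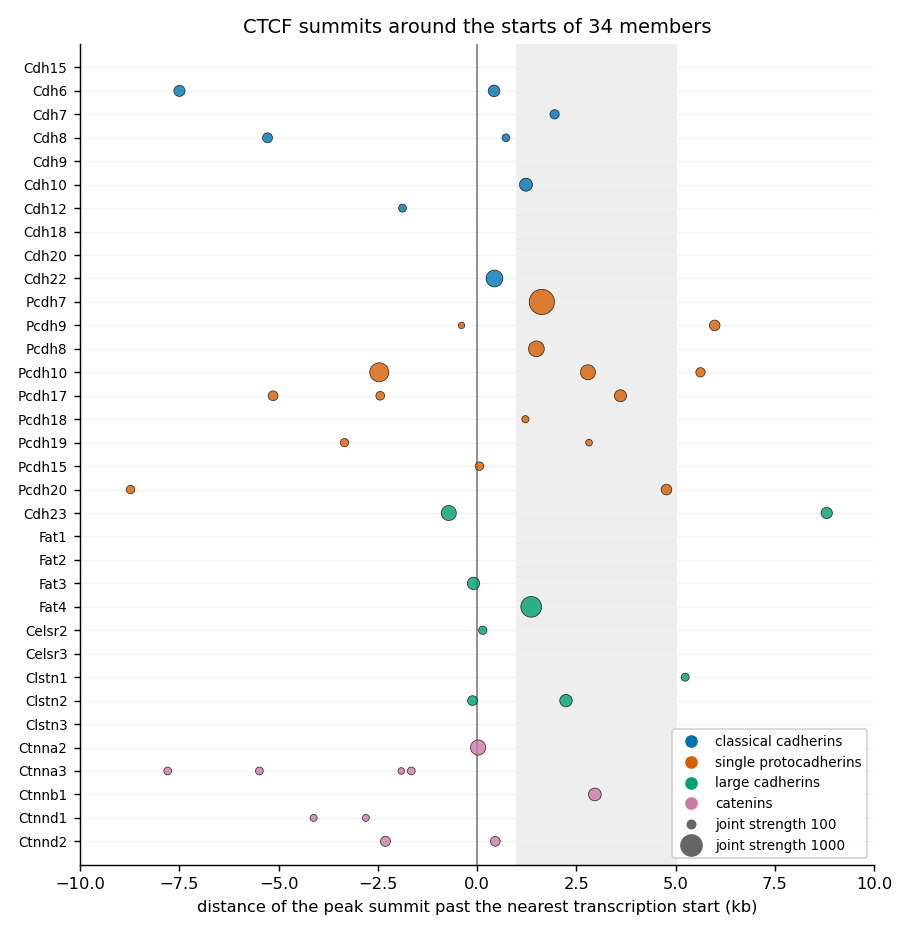
Distance of peak summits from the nearest transcription start (in kb, positive into the gene) for the 34 members with a known strand, coloured by family, with circle area growing with joint strength. The grey band is the stretch of 1 to 5 kb past the start, where 7 of 9 single protocadherins have a summit, with Pcdh7 (1499) the strongest.

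**Figure D4:**
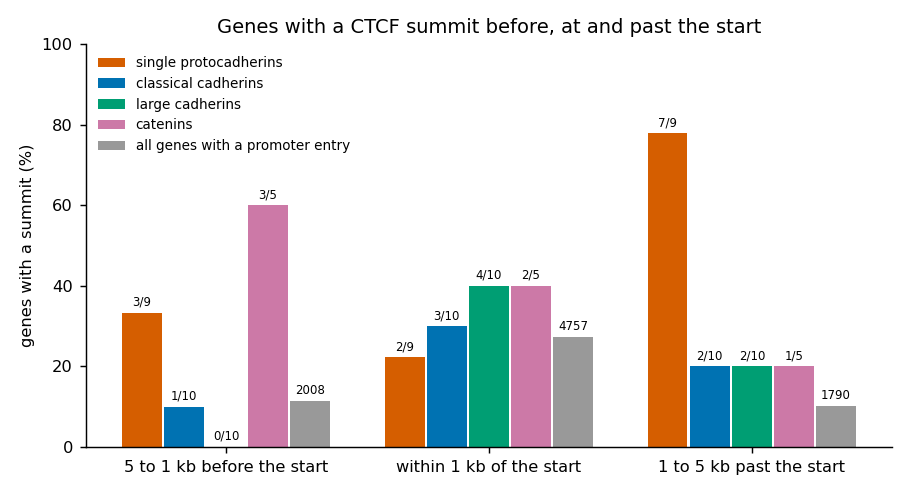
Share of genes (percent) with a summit in 3 windows around the start, for the families of members and for all protein-coding genes with a promoter entry. In the window of 1 to 5 kb past the start, single protocadherins stand at 77.8% and all genes at 10.2%, while within 1 kb of the start the families stand between 22.2% and 40% and all genes at 27.2%.

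Outside the single protocadherins, Fat4, which pairs with Dchs1 across cell borders, had a strong peak with its summit 1359 bp past its start and with 310 and 679. This peak is broad, at chr3:38882232-38889174 (GRCm38), and also spans the start and the lower end of the gene. Cdh10, a type II cadherin, had 50.7 and 300 at 1227 bp. Ctnnb1, which also carries Wnt signals to the nucleus, had no summit at its ends but one 2963 bp past a start with 39.3 and 293. Cdh7 had 18.7 and 130 at 1948 bp. Clstn2 had a second peak 2235 bp past its start with 26.3 and 291. In these 5 genes the second column was the higher one, whereas Pcdh7, Pcdh8, Pcdh10 and Pcdh17 were near equal. Over the 12 peaks 1 to 5 kb past a start the median joint strength was 325, against 154 for all genes' peaks there. Within 1 kb of a start the members' median was 174, against 142 for all genes.

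Inside the genes, 8 members held 0 summits, 18 held 1, 14 held 2 to 4 and 8 held 5 or more. The 8 with the most held 74 of the members' 129 inside summits. Cdh13, T-cadherin, which has a lipid anchor in place of a tail, had 15, the most of any member. Cdh4 had 11, Pcdh15 and Ctnna3 had 10 each, Cdh23 had 9, Ctnna2 and Ctnnd2 had 7 each, and Clstn1 had 5. Cdh13, Ctnna3, Pcdh15 and Ctnna2 are over 1000 kb long, and their densities of 1.27, 0.635, 0.644 and 0.637 summits per 100 kb stand beside 0.777 for all genes over 300 kb pooled. In all, 20 of the 48 members held more summits inside than their length times the pooled density of their length class. The share of all genes above that line was not computed, so this count cannot be read as high or low. For all genes over 300 kb, the pooled density of 0.777 was above the median of 0.667.

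Among members of 100 kb or more, the densest were Fat1 with 3.36 summits per 100 kb, Celsr1 with 2.95, Cdh4 with 2.41, Cdh23 with 2.29 and Ctnna1 with 2.21. Pooled over members of 100 to 300 kb, the density was 1.21 per 100 kb, against 1.38 for all genes of that length. Over 300 kb it was 0.654 in members, against 0.777 in all genes. The 12 type II cadherins span 3744 kb together and held 15 summits inside. The 7 of 100 to 300 kb had a pooled density of 0.877 per 100 kb, and the 3 over 300 kb, Cdh8, Cdh12 and Cdh18, had 0.202, both below the values for all genes of those lengths. The 5 type I genes, which are mostly shorter, held 16 summits in 809 kb, 11 of them in Cdh4 alone. Among the short members, a single summit inside gave high densities, with 22.02 per 100 kb in Pcdh8, 15.03 in Pcdh20, 7.10 in Pcdh18 and 5.26 in Cdh15, the muscle cadherin. The lowest densities above 0 were those of Cdh18 at 0.108, Pcdh11x at 0.161 and Clstn2 at 0.170. The 8 members with 0 summits inside were Cdh2 and Cdh9, both longer than 100 kb, and Cdh5, Cdh19, Pcdh12, Fat2, Dchs1 and Celsr3. Of these, Cdh5, the VE-cadherin of blood vessels, and Dchs1 each had 6 summits in their flanks, Pcdh12 had 7 and Fat2 had 3.

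**Figure D5:**
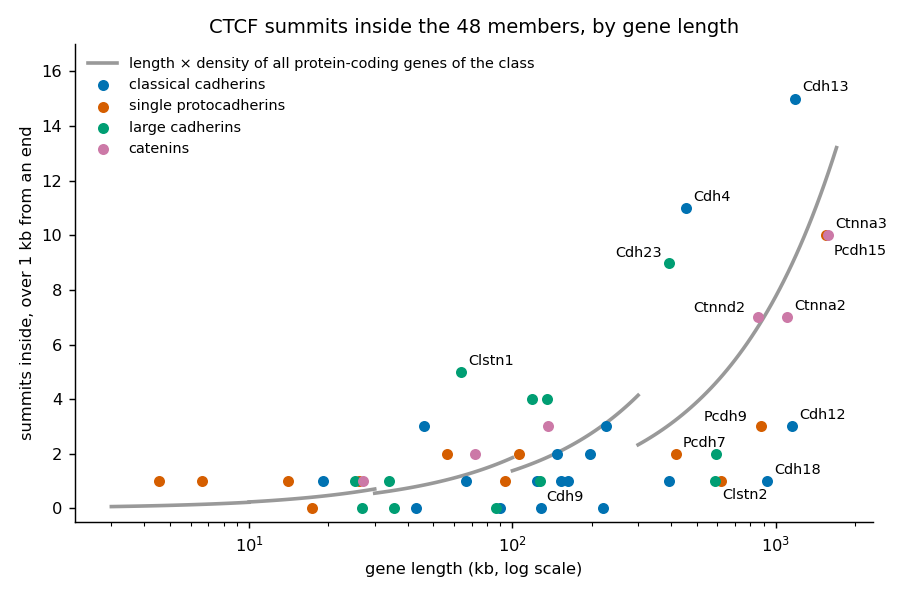
Number of summits inside each of the 48 members, more than 1 kb from an end, against gene length in kb on a log scale, coloured by family. Grey lines give length times the pooled density of all protein-coding genes in that length class, and Cdh13 (15), Cdh4 (11) and Cdh23 (9) lie above them while Cdh12 (3), Cdh18 (1) and Clstn2 (1) lie below.

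The strongest peaks inside differed by family. Celsr2 had a summit inside (chr3:108401082-108403387) with 600 in the first column and 748 in the second, and a neighbour 1406 bp below its lower end with 259 and 913. The strongest inside a classical cadherin was in Cdh13 with 74.0 and 467, and the strongest inside a catenin was in Ctnna2 with 95.4 and 381. In the flanks, the strongest peak of all members lay 12169 bp above Pcdh12, an endothelial protocadherin, with 825 and 864. Cdh22 had 411 and 552 at 41218 bp above its bounds, and Ctnna3 had 42.2 and 460 at 47177 bp below. Flank peaks can belong to a neighbour, and those of Cdh22 and Ctnna3 lie within 1 kb of an end of Slc35c2 and of Dnajc12. Of the 244 peaks, 4 were counted for a pair of neighbouring members, 3 for Pcdh1 with Pcdh12 and 1 for Cdh1 with Cdh3. Cdh1 and Cdh3, the epithelial E- and P-cadherin genes, lie side by side, and the shared peak had 57.1 and 82.1.

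Many members lay beside long stretches with no summit at all. With a limit chosen after the values were seen, 22 of 48 members (45.8%) touched a stretch of more than 500 kb between neighbouring summits, against 13.5% of all protein-coding genes. The longest stretches of these 22 members were 22 different ones, but a member can touch several. Cdh7, for example, also touched the stretch of Cdh19, which begins at the summit inside Cdh7. Over the list, the median distance between neighbouring summits was 26.8 kb, and 750 of 33794 distances exceeded 500 kb. Classical cadherins had such a stretch in 9 of 18 cases, single protocadherins in 7 of 12, large cadherins in 4 of 12 and catenins in 2 of 6. Within the classical cadherins these were 9 of 12 type II genes and 0 of the 6 type I and T-cadherin genes. The share differed by length class, and over all genes it did not rise steadily with length. Under 10 kb it was 0 of 2 members against 22% of all genes. Between 10 and 30 kb it was 1 of 7 members (14.3%) against 7.72% of all genes. From 30 to 100 kb it was 2 of 11 members (18.2%) against 6.83%. Over 300 kb it was 11 of 15 members (73.3%) against 34.1% of all genes of that length. Between 100 and 300 kb, the counts were 8 of 13 members (61.5%) against 9.09% of all genes.

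The longest stretch was that of Pcdh19, with 4354 kb, nearly all of it below the gene, followed by Ctnna2 with 3585 kb, of which 3222 kb lie below its bounds. Pcdh11x touched 2534 kb, Cdh7 2350 kb, Pcdh9 2093 kb and Cdh8 1938 kb. Cdh9 and Cdh19 lay wholly within such stretches. The nearest summits to Cdh9 were 1490 kb below and 242 kb above it, and those to Cdh19 were 902 kb below and 683 kb above it. Both are type II cadherins, and together with Celsr3 they were the 3 members with no summit within 50 kb. Celsr3, at 26.9 kb a short gene, had its nearest summits 66.1 kb below and 148 kb above.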

How the data were processed

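CTCF peaks came from 2 immunoprecipitations of mouse cortical neurons. Per the submitters' processing notes, the builds were mm10 and GRCm38.p6, and the tools included MACS2, BWA, SAMtools, Trimmomatic and FastQC. Not given in the sources used here: versions, the peak threshold, the use of inputs. The authors deposited 1 table of 20 columns, with a score per peak, the −log10 p of either replicate's match, and their sum. The table does not tie its replicate columns to labelled replicates, and depth per library is unknown. Input libraries were not used here.

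Summits were joined to RefSeq gene bounds of GRCm38.p6, and 348 genes on scaffolds, 113 of them protein-coding, were left out. Starts came from the RefSeq promoter table, with each summit given to its nearest start. Gene bounds carry no exons, so exon and intron were not separated. Members and lists were chosen with earlier results of these data known. Named by rule were all members with an end peak or with none within 50 kb, the 5 with the most summits inside, the 5 densest of 100 kb or more, the strongest peak inside or within 50 kb per family, and the 3 strongest end peaks per partner list. Other members were named to fill counts. No sample comparison was possible with 1 condition, and no p-value was computed. The join was checked on simulated data with planted peaks. Python 3.11.15, numpy 2.4.6, pandas 2.3.3 and matplotlib 3.10.9 were used.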

Additional observations from a re-analysis of the deposited data

How the results depend on the processing

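Counts at ends moved most with the window. With 500 bp, 7 members had an end summit (20.4% of all genes), 2 of them classical cadherins, 0 single protocadherins and 2 large cadherins. With 5 kb, 38 members had one (51.3% of all genes), namely 12 classical cadherins, 12 single protocadherins, 8 large cadherins and 6 catenins. Counting any base of a peak gave 21 members (36.1% of all genes), 5 single protocadherins and 8 large cadherins. Peaks above the median joint strength gave 3 large cadherins at ends, 7 members at starts (12.8% of all genes) and an inside density of 0.367 per 100 kb (0.683 for all genes), against 0.831 and 1.46 with all peaks. Keeping peaks over the first column's median gave a density of 0.367 and 4 single protocadherins 1 to 5 kb past the start. Peaks above the median of the second column gave 5 members at ends (13.1% of all genes), 1 classical cadherin, 2 large cadherins and 1 catenin, 5 members at starts (10.9% of all genes) and a density of 0.374. A start window of 5 kb gave 25 members (40.7% of all genes), and the short core letters alone gave 20 promoters instead of 2. The cause of these moves was not tested. The other 42 values stayed within 1.5 times the main ones, among them those at an IDR of 0.01 and at ends not shared with another gene (12 members). Alternatives for the density, for peaks 1 to 5 kb past a start and for strengths were chosen after seeing the data. No paired analysis was possible because the list joins both replicates and compares no groups. Leaving out a replicate was not possible for the same reason. Ranks of end peaks moved in 16 of 26 cases with 1 column alone, and Pcdh1 stood first in the second column but at rank 5 in the first.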

Other observations

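Genes that work with the members were counted in 4 lists. Of 20 adherens junction partners, 10 (50%) had a summit within 1 kb of an end, against 29.2% of all protein-coding genes. The strongest were at Nectin2, a nectin of cell contacts, with 226 (first replicate column) and 469 (second), Ptprm, a receptor phosphatase, with 416 and 246, and Pkp4, a relative of p120-catenin, with 349 and 248. Of 22 Wnt and beta-catenin signalling genes, 10 (45.5%) had one. Tcf7l1, a DNA-binding partner of beta-catenin, had 652 and 584, Apc2, of the destruction complex, had 110 and 355, and Bcl9l, a co-activator of beta-catenin, had 230 and 227.

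Of 10 planar polarity partners, 5 (50%) had an end summit, with Ankrd6 at 572 and 720, Vangl2 at 84.1 and 196, and Fjx1 at 71.9 and 127. Of 18 other cadherin superfamily genes, among them the desmosomal cadherins, 2 (11.1%) had one, Cdh16 with 120 and 550 and Cdh24 with 179 and 480. The lists differ in gene length, with medians of 128 kb for the adherens junction partners, 71.3 kb for the planar polarity partners, 42.5 kb for the signalling genes and 33.8 kb for the other cadherins. Of all protein-coding genes, 33.7% of those of 30 to 100 kb and 41.8% of those of 100 to 300 kb had an end summit. The part of gene length in the counts of the lists was not tested.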
